A study of Mus musculus with 6 samples.

Results

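Mouse melanoma cells carry both genes whose products restrain immune cells and genes whose products alert them when cells die. The 9 genes described here are such immune checkpoint ligands and danger signals: Cd274, Pdcd1lg2, Cd276, Cd47, Nt5e, Lgals9, Hmgb1, Calr and Anxa1. They were taken by name, as the rows of the deposited gene table with these symbols, and all 9 were found among its 27179 genes. The cells were B16F10, an established mouse melanoma line of wild-type genotype. OLO (olive oil) was given to 3 cultures at 0.01% for 6 h, and OZO (olive oil that had been ozonated) to the other 3 at the same dose and for the same time. The study asked what OZO does to melanoma cells.

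The measurement used is the authors' mean level of each gene over the 6 RNA-seq libraries of both groups, in log2 CPM, where CPM is reads scaled to a library of 1000000 counted reads. OLO and OZO cultures enter this mean alike. A level below is therefore an average over both oils, which for a gene that differs between them is the level of neither group, and no difference between OZO and OLO is reported. One mean per gene carries no spread between cultures, and therefore no error, test or replicate number stands beside the levels. Sampling depth can be read from genes without any read, which share the lowest level, -5.30 on the log2 CPM scale. That value places the average library at 19641946 reads, so that 1 CPM stood for about 19.6 reads. Of the 27179 genes, 21154 had at least 1 read in some library and 11878 reached 1 CPM, which is 56.2% of the genes with reads.

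Checkpoint ligands sit on the surface of a tumour cell and bind receptors on T cells or macrophages, which then hold back. The best known pair is PD-L1 with its receptor PD-1, the target of antibodies used against melanoma. Danger signals work in the other direction: proteins that normally act inside the cell, such as chaperones and chromatin proteins, appear at the surface or outside when the cell is damaged and are recognised by phagocytes and dendritic cells.

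All 9 genes had reads. At least 1 CPM was reached by 7 of them (77.8%, against 56.2% of all genes with reads), and the same 7 lay above the median level of genes with reads, 1.45 log2 CPM. Calr, Hmgb1 and Anxa1, the danger signals, were the highest. Cd47, Lgals9, Cd274 and Cd276 were intermediate, whereas Pdcd1lg2 and Nt5e had mean levels below 1 CPM and at least 1 library without a read.

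**Figure D1:**
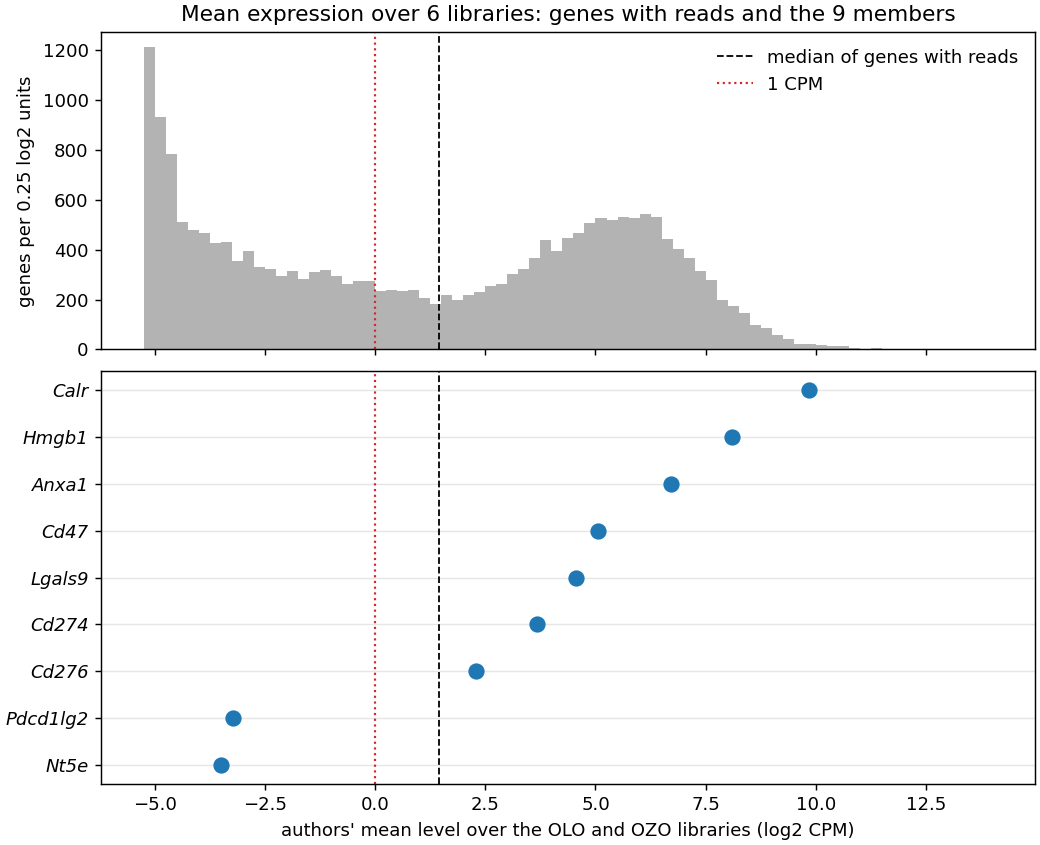
Upper panel, number of genes with reads (vertical axis) by the authors' mean level over the OLO and OZO libraries (horizontal axis, log2 CPM); lower panel, the same level for each of the 9 genes, 1 point per gene. The dashed line is the median of genes with reads (1.45) and the dotted line is 1 CPM; 7 points lie to the right of both lines, and Pdcd1lg2 and Nt5e lie to the left of both.

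Of the ligands of PD-1, Cd274 had a mean level above 1 CPM and Pdcd1lg2 one below it. Cd274, which encodes PD-L1, had a mean level of 3.67 log2 CPM (12.8 CPM, a geometric mean of 251 for reads plus 0.5). It ranked above 60.9% of genes with reads. Pdcd1lg2, which encodes PD-L2, the second ligand of PD-1, had a mean level of -3.21 log2 CPM, or 0.108 CPM. No fold between the genes is given, since a mean that includes a library without reads depends on the 0.5 reads added to every count.

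The mean level of Pdcd1lg2 is low enough to limit the sets of counts behind it. The mean of log values contains the product, over the 6 libraries, of 2 × reads + 1, which must be a whole odd number. For Pdcd1lg2 this product was 5775, which allows 36 sets of counts. In each of them at least 1 of the 6 libraries had no read of the gene. The reads of the 6 libraries together lay between 13, spread over 5 libraries, and 2887, if 1 library held them all, and the mean does not tell which set applies. The treatment of a library without a read cannot be told from the mean.

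The ligand genes are neighbours on the plus strand of chromosome 19 in GRCm38 (mm10). Cd274 runs from 29367455 to 29388095 and has 1 annotated transcript. Pdcd1lg2 runs from 29410919 to 29471161 and has 2. A stretch of 22.8 kb separates them. An antisense gene overlaps exons of Cd274, and another antisense gene, A930007I19Rik, lies across Pdcd1lg2 without touching its exons. A930007I19Rik had a mean level of 1.02 log2 CPM, above that of Pdcd1lg2. If counting ignored strand, exonic reads of Cd274 and its antisense partner could not be told apart. The libraries were made with a kit that keeps strand, but the strand setting of the counting is not given in the sources used here.

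The sequence just before the start of both genes is shown because neighbours of different mean level invite a look at their promoters, together with that of Calr, the most highly expressed of the 9. The stretches come from RefSeq on GRCm38.p6 and are written 5′ to 3′ on the strand of the gene, with matches to the motifs named with the promoter counts in capitals. Those of Pdcd1lg2 and Calr hold 240 bases, whereas that of Cd274 holds 129, since a UTR of Plgrkt, a gene that runs the other way, lies beyond it. Capitals mark a GC box before Cd274. Before Calr they mark, from left to right, the core of the antioxidant response element, the endoplasmic reticulum stress element on the opposite strand, a CCAAT box and a GC box. Cd274 is at chr19:29367309-29367437 (plus strand), Pdcd1lg2 at chr19:29410679-29410918 (plus strand) and Calr at chr8:84846935-84847174 (minus strand).
Cd274: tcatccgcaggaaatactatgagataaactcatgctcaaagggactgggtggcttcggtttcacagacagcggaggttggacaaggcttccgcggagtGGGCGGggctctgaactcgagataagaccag
Pdcd1lg2: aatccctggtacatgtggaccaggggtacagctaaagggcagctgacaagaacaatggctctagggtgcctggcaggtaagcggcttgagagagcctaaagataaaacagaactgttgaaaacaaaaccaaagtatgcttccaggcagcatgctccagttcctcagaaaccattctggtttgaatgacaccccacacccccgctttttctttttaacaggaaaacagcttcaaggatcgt
Calr: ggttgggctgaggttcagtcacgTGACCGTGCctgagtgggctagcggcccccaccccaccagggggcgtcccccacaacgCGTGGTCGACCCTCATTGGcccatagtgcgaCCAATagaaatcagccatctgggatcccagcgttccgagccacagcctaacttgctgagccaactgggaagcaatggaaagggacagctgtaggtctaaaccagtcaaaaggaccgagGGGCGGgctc

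Cd276 encodes B7-H3, a surface protein of the same family as PD-L1 that many tumours carry. Its mean level was 2.29 log2 CPM (4.88 CPM, a geometric mean of 95.8 for reads plus 0.5), higher than in 53.3% of genes with reads. It is the gene nearest to the median among the 9. Cd276 lies on the minus strand of chromosome 9 from 58524298 to 58555437, and all 4 of its annotated transcripts are protein-coding. A gene on the opposite strand overlaps its exons, so the unknown strand setting of the counting bears on Cd276 as well.

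Cd47 encodes the signal by which a cell tells macrophages not to engulf it. Its mean level was 5.05 log2 CPM (33.2 CPM), above 72.6% of genes with reads and above Cd274 on that scale. Its gene spans 114 kb of chromosome 16, from 49800533 to 49915010 on the plus strand, and has 10 annotated transcripts, of which 9 are protein-coding. These transcripts differ widely in length. With its longest transcript of 5.25 kb, Cd47 stood at 6.32 CPM per kilobase, and with the mean length of its protein-coding transcripts at 19.1 CPM per kilobase. Sirpa, which encodes the receptor of CD47 on macrophages, was itself highly expressed in these melanoma cells, with 8.06 log2 CPM.

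Lgals9 encodes galectin-9, a sugar-binding protein that binds TIM-3 on T cells. It had a mean level of 4.57 log2 CPM (23.7 CPM), higher than 68.0% of genes with reads. Lgals9 lies on the minus strand of chromosome 11 from 78962974 to 78984946. Its receptor gene Havcr2, which encodes TIM-3, had a mean level of 1.41 log2 CPM. Per kilobase of the longest transcript, Lgals9 reached 15.0 CPM and Cd47 6.32 CPM, the reverse of their order in CPM.

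Nt5e encodes CD73, the surface enzyme that makes adenosine, which dampens T cells, from AMP. Nt5e had the lowest mean level of the 9 genes, with a value of -3.50 log2 CPM or 0.0884 CPM. Its product of 2 × reads + 1 was 1755, which allows 21 sets of counts. In all of these at least 1 library had no read, and the 6 libraries together held between 11 reads and, if they were all in 1 library, 877. Nt5e lies on chromosome 9 from 88327197 to 88372092 on the plus strand, and overlaps no other annotated gene. Entpd1, which encodes CD39, an enzyme that supplies AMP from ATP, also stayed below 1 CPM, at -2.37 log2 CPM. Enpp1, which also makes AMP from ATP, lay above it at 0.65 log2 CPM.

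Calr was the highest of the 9 genes. It encodes calreticulin, a chaperone of the endoplasmic reticulum that acts as an eat-me signal when exposed on dying cells. Its mean level was 9.83 log2 CPM (913 CPM, a geometric mean of 17925 for reads plus 0.5), which placed it at rank 83 from the top of the table. Calr occupies 5.09 kb of chromosome 8, from 84841850 to 84846934 on the minus strand. Per kilobase of the longest transcript it stood at 418 CPM, 119 times the value of Cd274. With merged exons the value of Calr was 317 CPM per kilobase, whereas that of Cd274 did not change.

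Hmgb1 encodes a chromatin protein that binds Toll-like receptors and RAGE once it has left the cell. Its mean level was 8.09 log2 CPM (272 CPM), above 96.9% of genes with reads. The level of Calr per kilobase was 4.35 times that of Hmgb1 with the longest transcript, 5.84 times with merged exons and 1.82 times with the mean of protein-coding transcripts, so the size of this gap depends on the length used. Hmgb1 lies on the minus strand of chromosome 5 from 149046702 to 149184489. Uspl1, on the opposite strand, and Mm2pr, on the same strand, overlap its exons, with mean levels of 5.86 and -2.58 log2 CPM. Gene copies of Hmgb1 named as pseudogenes or related sequences number 13 in the annotation, and reads that match several of them could have been split or dropped in counting. The deposited table lists 1 other row described as an Hmgb1 sequence, Hmgb1-rs17, at -3.87 log2 CPM. The level of Hmgb1 is uncertain to that extent.

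Anxa1 encodes annexin A1, a phospholipid-binding protein that dying cells release and that attracts dendritic cells through formyl peptide receptors. Its mean level was 6.71 log2 CPM (105 CPM), above 88.9% of genes with reads. Anxa1 lies on chromosome 19 from 20373428 to 20390944 on the minus strand. The receptor genes were nearly silent in these cells. Fpr1 had exactly 1 read over the 6 libraries, and Fpr2 had none.

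Because a long transcript yields more reads than a short one at the same number of molecules, levels of different genes were ordered per kilobase. The lengths are those of GENCODE, which may differ from the annotation used in counting. They may therefore include exons whose reads were not counted. With the longest transcript, the order from the top was Calr (418 CPM per kilobase), Hmgb1 (96.0), Anxa1 (62.5), Lgals9 (15.0), Cd47 (6.32), Cd274 (3.52), Cd276 (1.35), Pdcd1lg2 (0.0624) and Nt5e (0.0221), the last pair with values that depend on the 0.5 reads added. Merged exons gave the same order. With the mean length of protein-coding transcripts 1 pair changed places, Lgals9 (17.0) and Cd47 (19.1). Choice of length moved Hmgb1 most, by 2.08 log2 units, whereas Cd274, with its 1 transcript, kept 1.82 log2 CPM per kilobase throughout. Whether neighbours in this order differ beyond the spread between cultures was not tested.

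**Figure D2:**
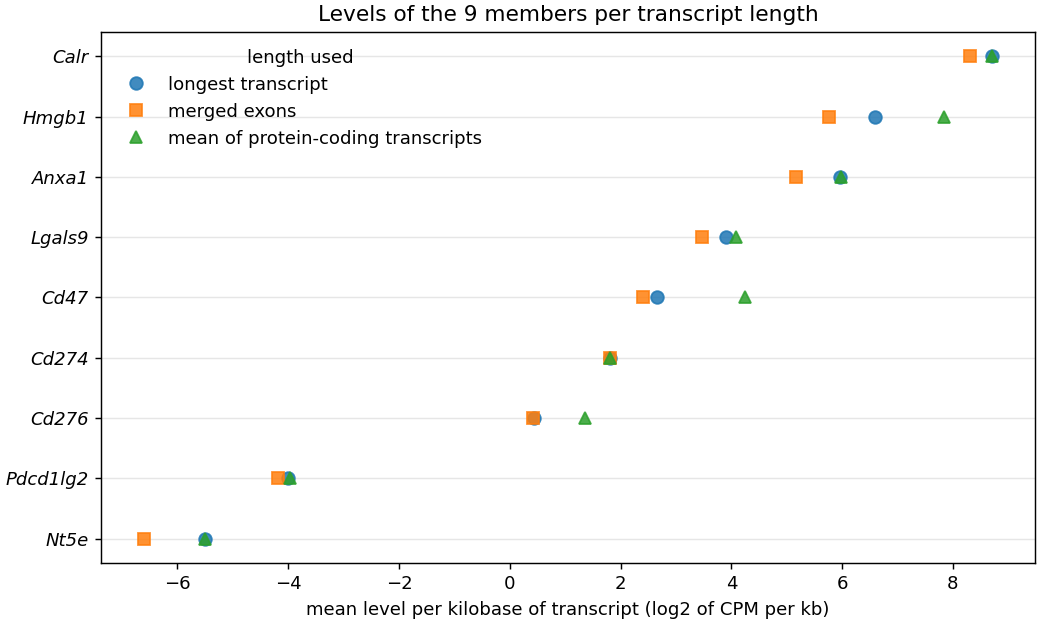
Mean level per kilobase of transcript (horizontal axis, log2 of CPM per kb) for each of the 9 genes, with the length taken from the longest transcript (circles), the merged exons (squares) or the mean of protein-coding transcripts (triangles). The ranges of Lgals9 and Cd47 overlap, as do those of Hmgb1 and Anxa1, while Pdcd1lg2 and Nt5e lie apart from the other 7 genes with each length.

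Upstream of their starts the 9 genes differed in base composition. In the 250 bases before the start, the RefSeq table holds 11 entries for the 9 genes, since Cd47 and Hmgb1 have 2 each. These RefSeq starts are not always the outer ends of the GENCODE spans given above, as those of Cd47 lie 55.1 kb inside its span and those of Hmgb1 131 and 133 kb inside. CpG dinucleotides numbered 39 and 19 in the entries of Hmgb1, 30 and 31 in those of Cd47, 29 in Cd276, 21 in Nt5e, 13 in Calr and 11 in Cd274. Lgals9 and Pdcd1lg2 held 3 each and Anxa1 held 2. The median over all 32851 entries was 6, with quartiles of 2 and 16. Level and CpG number did not run in parallel in every gene, as Nt5e had the lowest mean level and Anxa1 the third highest. Other genes did pair them, such as Hmgb1 with a high level and Pdcd1lg2 with a low one. A relation over the 9 genes was not tested.

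Among the motifs searched on both strands, Calr held the rarest. The endoplasmic reticulum stress element, CCAAT and CCACG separated by 9 bases, was present 1 time in the 250 bases before Calr and in 0.113% of all entries (37 of 32851). Its left part is also a CCAAT box, which 33.8% of entries held, among the 9 genes Calr, Cd276 and 1 of the entries of Hmgb1. GC boxes (GGGCGG, 32.7% of entries) were found before Cd274, Cd276, Cd47, Nt5e and Calr and in 1 of the entries of Hmgb1. Anxa1 was the only one of the 9 with a TATA box (TATAAA, 12.4%), and Lgals9 the only one with the interferon regulatory factor element, GAAA repeated after 2 bases (2.98%). The core of the antioxidant response element, TGAC and GC separated by 3 bases (10.2%), was found before Calr. No match to the interferon gamma activated site, TTC and GAA separated by 3 bases (7.02%), was found in the 11 entries, and Pdcd1lg2 matched none of the 7 motifs.

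The list of 12 receptors and partners holds receptors of the 9 products, Adora2a and Adora2b, whose receptors bind the adenosine that CD73 makes, and Thbs1, a secreted ligand of CD47. Of these 12 genes 6 reached 1 CPM, against 43.7% of all genes and 56.2% of those with reads. Fpr2, 1 of the 12, had no read. The median was -0.71 log2 CPM. Per kilobase the highest were Sirpa (67.0 CPM), Tlr4 (7.24), a receptor for HMGB1, and Lrp1 (2.95), through which phagocytes take up cells that expose calreticulin. Pdcd1, which encodes PD-1 itself, had exactly 1 read over the 6 libraries. Of 14 other inhibitory and costimulatory genes, which include Ido1, an intracellular enzyme that degrades tryptophan, 5 reached 1 CPM and the median was -2.16 log2 CPM. Pvr, a ligand of TIGIT, stood far above the rest of this list with 56.2 CPM per kilobase, followed by Nectin2 with 3.45 and Ceacam1 with 0.847.

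Regulators of PD-L1 were all expressed, with 9 of 9 genes at or above 1 CPM (56.2% of all genes with reads were). Their median was 5.58 log2 CPM. Jak1 (41.6 CPM per kilobase) and Stat3 (19.0) act in cytokine signalling, and Cmtm4 (16.9) belongs to a family that keeps PD-L1 from being degraded. For extracellular ATP and adenosine, 6 of 10 genes reached 1 CPM, near the share of 56.2%, with a median of 1.07 log2 CPM. Those highest per kilobase were Slc29a1 (14.8 CPM), a nucleoside transporter, Adk (13.8), which phosphorylates adenosine, and Ada (4.31), which deaminates it.

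Other chaperones and danger signals reached 1 CPM in 10 of 14 cases (43.7% of all genes did), with a median of 3.54 log2 CPM. Hsp90aa1 (882 CPM per kilobase), Hspa5 (478.5) and Hsp90b1 (478.1), all chaperones, lay above Calr (418), and S100a9, an alarmin of neutrophils, had no read. Of 12 other annexins and galectins, 9 reached 1 CPM (56.2% of all genes with reads did), and the median was 5.80 log2 CPM. Lgals1 (777 CPM per kilobase) lay far above Lgals9 (15.0), and Anxa5 (213) and Anxa2 (107) lay above Anxa1 (62.5).

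**Figure D3:**
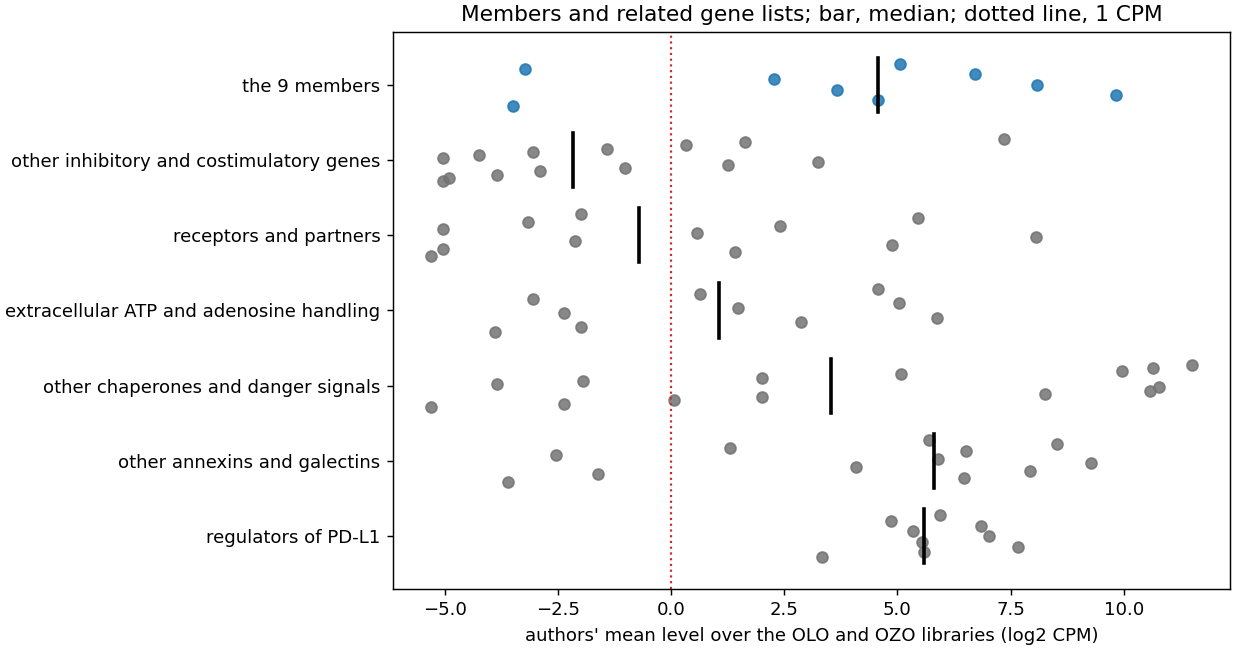
Mean level over the OLO and OZO libraries (horizontal axis, log2 CPM) of the 9 genes (blue) and of the genes of 6 related lists (grey), 1 point per gene (height within a row carries no value), with a bar at the median of each list and a dotted line at 1 CPM. The regulators of PD-L1 all lie to the right of the line, and the other inhibitory and costimulatory genes have the lowest median (-2.16).

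The label of a melanoma line was borne out by its markers, since all 7 melanocyte genes lay between 108.5 CPM and the 7052 CPM of Dct, a melanin enzyme. Markers of T cells (0 of 5) and keratinocytes (0 of 4) did not reach 1 CPM. Of the markers of myeloid cells 2 of 6 did, up to 5.47 CPM for Cd68, of fibroblasts 3 of 5, up to 3.28 CPM, and of endothelial cells 1 of 4, at 1.21 CPM. Ptprc, which marks all white blood cells, was at 0.0702 CPM.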

How the data were processed

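RNA of 6 B16F10 cultures (3 OLO, 3 OZO) was sequenced. According to the methods and the submitters' processing notes, reads were aligned to mm10 with HISAT2 (2.1.0), counted per gene with featureCounts (2.1.1) and compared with limma-voom (3.58.1). The deposited table has 1 row per gene, and the column analysed is the authors' mean log2 CPM over all libraries, to each count of which voom adds 0.5 reads. Its remaining columns hold the authors' own comparison of OZO with OLO (log2 fold change, moderated statistic, p-values, log odds) and were not used, so no test was made. A test had been planned in case values of single libraries were at hand. Libraries were made with a directional kit (NEBNext Ultra II). Read totals of single libraries, the strand setting of the counting and its treatment of reads with several matches are not given in the sources used here.

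Depth was taken from the level shared by genes without reads. For 14966 low genes the product of 2 × reads + 1 over libraries was computed, and 100% came within 0.01 of a whole number. These include the 6025 genes without reads, whose product is 1 by construction. Both steps were run on simulated counts made with the formula that they invert. That checks the computation only and says nothing about the real libraries. Transcript lengths and positions came from GENCODE M21 on GRCm38, which matched 23906 of 27179 rows. Promoter entries came from RefSeq (GRCm38.p6) and matched 9 of 9 genes. The genes named are the 9, the 3 highest per kilobase of each other list with its genes without reads, and, chosen after their values were seen, Thbs1, Adora2a, Adora2b, Ido1, Havcr2, Entpd1, Enpp1, Fpr1, Pdcd1, Uspl1, Mm2pr, A930007I19Rik, Hmgb1-rs17, Plgrkt, Dct, Cd68 and Ptprc. Members and lists were chosen with earlier results of these data known. Alternatives were other transcript lengths, other sets of ranked genes and limits of 0.5 and 2 CPM. Python 3.11.15, numpy 2.4.6, pandas 2.3.3, scipy 1.17.1 and matplotlib 3.10.9 were used.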

Additional observations from a re-analysis of the deposited data

How the results depend on the processing

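No paired analysis was possible because the level used is 1 mean per gene over all libraries. For the same reason leaving out a replicate, another test or normalization, another pseudocount and a filter on low values were not run. The median level of the 9 genes per kilobase was 2.66 log2 units with the longest transcript, 2.40 with merged exons and 4.09 with the mean of protein-coding transcripts, so it depends on the length chosen. Their median percentile was 68.0 among genes with reads, 43.0 among genes with at least 1 CPM and 75.1 among all rows, which follows from the genes ranked. Of the 71 genes in the other lists, 45 reached 1 CPM (43.7% of all genes did), 45 reached 0.5 CPM and 41 reached 2 CPM. The order of the 9 genes per kilobase changed for 1 pair, Lgals9 and Cd47. With 1 mean per gene, the reads of Pdcd1lg2 and Nt5e over all libraries are bounded only between 13 and 2887 and between 11 and 877.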
